A study of Mus musculus with 4 samples.

Results

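The genes described here copy the genome or make its building blocks. They are 38 genes with roles in origin licensing, the replicative helicase, the DNA polymerases, the sliding clamp and its loader, single-strand binding and ligation, deoxynucleotide supply, uracil excision and histone deposition. Each was read from probe sets that the platform annotation maps to that gene and no other. Where a gene had several, the brightest by its mean stood for it. Of the 38, 37 had such a probe set, among 18193 genes measured in the same way, and Chaf1a was not analysed here. A filter kept probe sets above the median of at least 1 array, and 36 of the 37 passed it, among 12189 genes. Each of the 36 was above the median on every array, untreated ones included, and Tyms was under it on every array.

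The arrays were Affymetrix mouse expression arrays of total RNA from fragments of distal colon, 1 array and 1 mouse per group. Untreated wild-type mice (WT), untreated Adamts12-deficient mice (KO), WT mice given dextran sodium sulfate (DSS) and KO mice given DSS made up the 4 groups. DSS is a sulfated polymer that injures the colonic epithelium, and Adamts12 encodes a secreted metalloprotease. DSS was given at 2% in the drinking water for 7 days by the series text and 8 days by the treatment protocol, with 1 day off it afterwards in both, and treatment began when mice were 8 to 10 weeks old. The labels give neither strain, sex nor the deleted part of Adamts12, and name no agent other than DSS. Because each group was 1 mouse, a difference between a pair of arrays had no replicate check. Values below are deposited log2 values, always in the order untreated WT, untreated KO, DSS-treated WT and DSS-treated KO. Where a pair of differences with DSS is given, WT comes first and KO second. A difference of 1 is 2-fold. Levels were compared within a probe set and never between genes.

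DNA replication begins when the origin recognition complex, Cdc6 and Cdt1 load the hexameric Mcm2-7 helicase onto DNA in G1. Mcm10, Cdc45 and the GINS complex then turn that helicase on, primase and polymerase alpha start each strand, and polymerases delta and epsilon extend it on the PCNA clamp. Ribonucleotide reductase, thymidylate synthase, thymidine kinase and dUTPase keep the deoxynucleotides in supply. In the colon these genes are mostly active in the dividing cells of the lower crypt, and their transcription is classically driven by E2F factors at the G1/S transition.

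The arrays had nearly equal column medians, from 3.42 to 3.46, and 3′ to 5′ differences of 0.64 to 0.83 for actin and 0.16 to 0.26 for Gapdh. The spiked hybridisation controls had medians of 7.74, 7.17, 7.62 and 7.66, lowest on the untreated KO array. The brighter Adamts12 probe set was low on all arrays and lower on both KO arrays, at 2.18, 1.42, 2.18 and 1.41. Whether it lies in the deleted part is not known. The arrays differed in markers of tissue position, the untreated KO array most of all. Hoxb13, a homeobox gene of the distal colon, read 9.47, 2.48, 7.84 and 8.40. Of 6 distal position markers measured, 5 were at least 2-fold lower in untreated KO than in untreated WT, and of 8 proximal colon and small intestine markers, 6 were at least 2-fold higher. The others, all dim, were Hoxd12 at 0.19, Fabp1 at 0.76 and Apoa1 at 0.10. The summed level of the distal markers was 38.69, 17.95, 28.13 and 31.81 over the arrays and that of the proximal ones 25.02, 48.07, 29.31 and 23.41. Against untreated WT, the DSS-treated WT array had 3 of the 6 distal markers at least 2-fold lower. Of the 8 proximal ones, 3 were at least 2-fold higher on it and 1 lower. The DSS difference in WT therefore also spans a difference in position markers. Because the untreated KO array differed most, the DSS difference in KO is also given against the untreated WT array. That pair differs in genotype as well as treatment. It also differed in position markers, with summed distal levels of 38.69 and 31.81 and proximal levels of 25.02 and 23.41.

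DSS-treated colons had higher levels of nearly the whole replication set, and ribonucleotide reductase subunit M2 (Rrm2), which sets the deoxynucleotide supply of S phase, led it. Of the 37 genes, 30 passed 2-fold upward in WT and none downward, where 5.82% of all genes past the filter passed it upward and 4.96% downward. The median over the 37 genes was 1.38, from 0.34 for Orc1 to 2.31 for Rrm2, and the median of all genes was -0.01. In KO, 18 passed it upward and none downward, beside 10.8% and 6.68% of all genes. The KO median was 0.96, from -0.21 for Rfc2 to 2.58 for Rrm2, beside 0.06 for all genes. Against the untreated WT array instead of the untreated KO array, the DSS-treated KO colon had 23 of the 37 at least 2-fold higher (6.14% of all genes), with a median of 1.17. That pair of arrays also differed in genotype and in position markers. In bulk tissue, more cells that copy DNA and more of these transcripts per cell cannot be told apart.

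**Figure D1:**
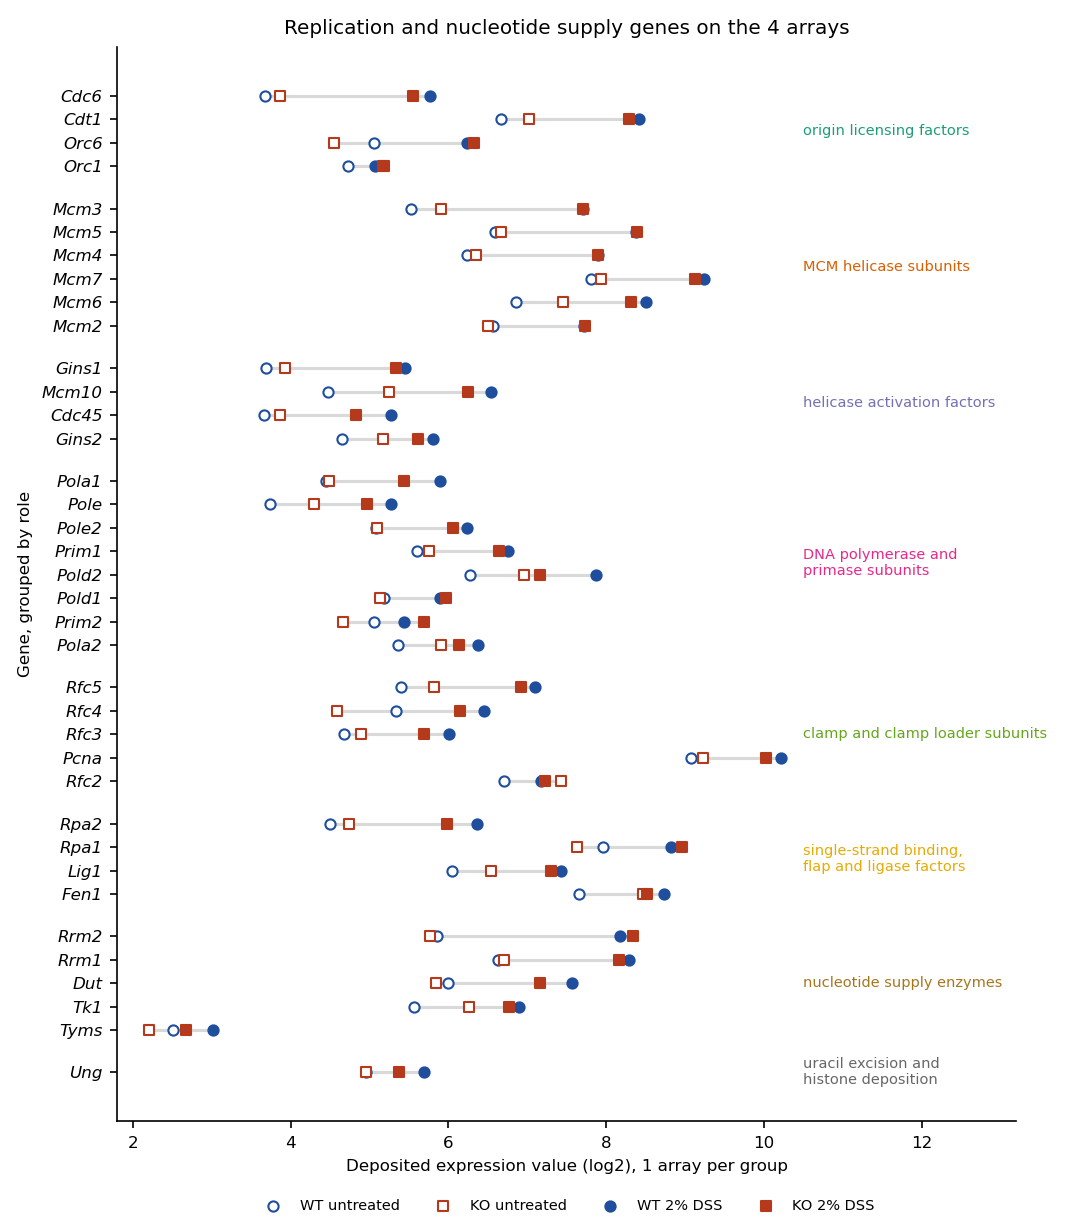
Each row is 1 gene and each point its deposited log2 value on 1 array, with open symbols for untreated and filled symbols for DSS-treated colon, circles for WT and squares for KO. The filled symbols lie to the right of both open symbols for 35 of 37 genes. The exceptions are Orc1 and Rfc2.

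The values separated by treatment without overlap for most genes. Both DSS arrays were above both untreated arrays for 35 of the 37, while 26.4% of all genes showed that order. No gene of the set showed the opposite order, which 22% of all genes did. The count of genes 2-fold higher in both genotypes was 16 (2.48% of all genes). A further 14 passed 2-fold in WT and not in KO, and Prim2 and Rpa1 passed it in KO and not in WT. Over all 12189 genes past the filter, 709 passed it upward in WT, 1312 in KO and 302 in both. Orc1, Pold1, Rfc2, Tyms and Ung passed it in neither. Genes just past 2-fold in WT were Pola2 at 1.01 and Fen1 at 1.08, and those just under it were Rpa1 at 0.86 and Ung at 0.73.

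Promoters of 4 genes at the top of the set by mean DSS difference, and of 2 at the bottom, are shown here so that the sequences upstream of the largest and smallest differences can be compared. They are taken from RefSeq on GRCm38.p6, among genes past the filter that had an entry. Each runs 5′ to 3′ on the gene's strand, 195 bases that end 30 bases past the transcription start. Capitals mark matches on either strand. An E2F-type core was the motif TTTGGCG of the classical site or its variant TTTCGCG. The letters TTTCCCG and, without any match in the set, TTTGCCG were counted with them. A CCAAT box and the cell cycle element called CHR, searched as TTTGAA, were the other motifs.
Rrm2, chr12:24708089-24708283, plus strand: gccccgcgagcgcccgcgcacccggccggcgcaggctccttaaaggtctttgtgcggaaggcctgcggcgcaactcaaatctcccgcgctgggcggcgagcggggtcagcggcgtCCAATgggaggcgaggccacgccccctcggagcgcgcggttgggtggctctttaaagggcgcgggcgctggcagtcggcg
Mcm3, chr1:20820283-20820477, minus strand: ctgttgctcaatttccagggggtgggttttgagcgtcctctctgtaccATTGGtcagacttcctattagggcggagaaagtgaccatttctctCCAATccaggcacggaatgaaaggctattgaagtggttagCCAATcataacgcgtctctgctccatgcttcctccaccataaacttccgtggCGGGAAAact
Cdc6, chr11:98907986-98908180, plus strand: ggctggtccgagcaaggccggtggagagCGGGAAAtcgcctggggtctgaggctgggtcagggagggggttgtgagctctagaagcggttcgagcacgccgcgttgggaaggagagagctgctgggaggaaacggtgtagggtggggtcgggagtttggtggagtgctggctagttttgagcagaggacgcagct
Mcm5, chr8:75109344-75109538, plus strand: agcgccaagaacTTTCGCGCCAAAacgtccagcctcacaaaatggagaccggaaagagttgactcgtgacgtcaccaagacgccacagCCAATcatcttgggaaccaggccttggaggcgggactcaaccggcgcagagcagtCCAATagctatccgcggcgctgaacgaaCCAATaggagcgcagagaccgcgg
Fen1, chr19:10204364-10204558, minus strand: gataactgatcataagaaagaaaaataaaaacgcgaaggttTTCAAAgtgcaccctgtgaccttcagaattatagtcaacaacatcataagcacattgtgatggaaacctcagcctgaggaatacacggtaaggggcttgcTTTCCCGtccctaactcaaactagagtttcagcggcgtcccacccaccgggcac
Orc1, chr4:108579289-108579483, plus strand: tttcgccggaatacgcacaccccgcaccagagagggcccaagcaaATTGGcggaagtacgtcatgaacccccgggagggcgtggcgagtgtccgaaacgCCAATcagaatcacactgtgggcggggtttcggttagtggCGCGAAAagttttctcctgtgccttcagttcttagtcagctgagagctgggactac
In Mcm5 the first run of capitals is an overlapping pair, TTTCGCG on the given strand and TTTGGCG read on the other. Rrm2 has a CCAAT box and no E2F-type core in this stretch, and Fen1, shown at the first listed of its start sites, has TTTCCCG and, on the other strand, a CHR-type match. Orc1, the lowest of the genes shown by the chosen probe sets, holds both an E2F-type core and CCAAT boxes, as do Mcm3 and Mcm5 near the top. The other probe sets past the filter gave larger DSS differences, 1.24 and 0.29 for Orc1 and 1.93 and 0.86 for Fen1.

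Promoter windows of 300 bases, 250 before and 50 after the start, were found for 32 of the 38 genes, on 14 chromosomes. Mcm4, Gins1, Gins2, Rfc2, Pole and Prim2 had no entry. An E2F-type core was present in 17 of the 32 genes (53.1%), beside 7.65% of the 27025 genes of the table. TTTGGCG occurred in 11 of the genes, TTTCGCG in 7 and TTTCCCG in 6, and some genes held more than 1 of them. In 13 genes a core began within 50 bases of the start. Counting only the 250 bases before the start, a window chosen after the data were seen, left 10 genes (31.2%) beside 6.34% of all genes. A CCAAT box was present in 19 of the 32 (59.4%, beside 41.1% of all genes), and TTTGAA in 4 (12.5%, beside 20.2%). The windows of these genes had a median GC content of 57.7%, against 52.7% for all windows, and the shares were not adjusted for it. The DSS differences were also set beside the presence of a core. The 16 measured genes with one had a median mean DSS difference of 1.15, and the 15 without one had 1.29. A match of letters is a description and not a bound site.

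Origin licensing factors mark where replication may start. Cdc6, the ATPase that brings the helicase to the origin complex, read 3.67, 3.87, 5.76 and 5.55, the largest mean DSS difference of the group. Both treated colons were above both untreated ones, by 2.09 in WT and 1.68 in KO. Orc1, the largest subunit of the origin recognition complex, read 4.73, 5.18, 5.07 and 5.17. Its untreated KO value exceeded both treated values, so its difference was 0.34 in WT and -0.01 in KO. The other probe set of Orc1 differed by 1.24 in WT and 0.29 in KO. Cdt1, the partner of Cdc6 in loading, was higher by 1.75 and 1.27, and Orc6 by 1.17 and 1.78. Over these 4 genes the median difference was 1.46 in WT and 1.48 in KO.

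The 6 subunits of the MCM helicase were all past 2-fold in WT, where 5.82% of all genes passed it upward. In KO 5 of the 6 were, beside 10.8% of all genes, and Mcm6 was higher by 0.86. Mcm3 read 5.52, 5.90, 7.70 and 7.71, and Mcm2 read 6.56, 6.50, 7.72 and 7.73. The treated WT and KO colons were nearly equal for both genes, and the treated values did not overlap the untreated ones. The DSS difference of Mcm3 was 2.18 in WT and 1.81 in KO, and that of Mcm2 was 1.16 and 1.23. Mcm5 was higher by 1.79 and 1.73, Mcm4 by 1.66 and 1.55, Mcm7 by 1.43 and 1.18, and Mcm6 by 1.66 in WT. The subunits form 1 complex in equal numbers, and their medians were 1.66 in WT and 1.39 in KO.

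The factors that activate the loaded helicase had median DSS differences of 1.69 in WT and 0.99 in KO. Gins1, a subunit of the GINS complex, read 3.69, 3.93, 5.45 and 5.34, a difference of 1.76 in WT and 1.41 in KO. Gins2, another subunit, read 4.65, 5.17, 5.80 and 5.61, higher by 1.15 and 0.44. For both genes the treated values lay above the untreated ones, and for Gins2 the gap was narrowed by the untreated KO value. Mcm10, which helps the helicase open origins, was higher by 2.07 and 1.01. Cdc45, which binds MCM and GINS in the moving helicase, was higher by 1.61 and 0.96. Its other probe set past the filter gave 0.18 and -0.21. All 4 genes passed 2-fold in WT and 2 did in KO, beside 5.82% and 10.8% of all genes.

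Among the 8 polymerase and primase subunits, 6 were at least 2-fold higher in WT and 1 in KO, with medians of 1.16 and 0.87. The KO count is near the 10.8% of all genes that passed 2-fold upward. Pola1, the catalytic subunit of polymerase alpha, read 4.45, 4.49, 5.89 and 5.44, which is 1.44 and 0.95 higher. Pola2, its accessory subunit, read 5.36, 5.91, 6.37 and 6.13, which is 1.01 and 0.22 higher. The treated colons exceeded the untreated ones for both. The primase small subunit Prim1 was higher by 1.16 and 0.89, and the large subunit Prim2 by 0.38 and 1.03, the 1 gene of this group to pass 2-fold in KO. For polymerase epsilon, the catalytic subunit Pole was higher by 1.53 and 0.68 and Pole2 by 1.16 and 0.96. For polymerase delta, the catalytic subunit Pold1 was higher by 0.71 and 0.84. Pold2 was higher by 1.60 and 0.20, the widest gap between genotypes in the set.

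PCNA, the ring that holds polymerases on DNA and a common marker of dividing cells, was 1.15 higher with DSS in WT and 0.80 higher in KO. Its loader, replication factor C, did not differ evenly across subunits. Rfc5 read 5.40, 5.82, 7.10 and 6.92, with differences of 1.70 and 1.10. Rfc2 read 6.70, 7.43, 7.17 and 7.22, with differences of 0.47 and -0.21, because its highest value was in the untreated KO colon. Rfc2 and Orc1 were the only genes of the 37 whose treated and untreated values overlapped. Rfc3 was higher by 1.33 and 0.80 and Rfc4 by 1.11 and 1.55. In this group 4 of 5 genes passed 2-fold in WT and 2 in KO, beside 5.82% and 10.8% of all genes.

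Replication protein A coats exposed single strands, and the flap nuclease Fen1 and DNA ligase 1 (Lig1) join the lagging strand. Rpa2, the middle subunit of replication protein A, read 4.50, 4.74, 6.36 and 5.98, higher by 1.86 and 1.24. Fen1 read 7.65, 8.47, 8.73 and 8.52. Its difference was 1.08 in WT and 0.05 in KO, and its untreated KO value lay 0.82 above untreated WT, the largest such gap in the set. A further Fen1 probe set gave 1.93 in WT and 0.86 in KO. Rpa1, the large subunit, was higher by 0.86 and 1.33, and Lig1 by 1.38 and 0.76.

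Nucleotide supply held the largest DSS difference of the set. Rrm2, the S-phase subunit of ribonucleotide reductase, read 5.86, 5.76, 8.17 and 8.34. Both treated colons were far above both untreated ones, by 2.31 in WT and 2.58 in KO, which is 4.96-fold and 5.98-fold. The large subunit Rrm1, needed in the same enzyme, was higher by 1.66 and 1.46. Dut, the dUTPase that keeps uracil out of DNA and makes the precursor of dTMP, was higher by 1.58 and 1.32. The salvage kinase Tk1 was higher by 1.33 and 0.51. Tyms, thymidylate synthase, read 2.51, 2.20, 3.02 and 2.67, all under the filter, with differences of 0.51 and 0.47. A probe set that the annotation shares between Tyms and its pseudogene was not used. Ung, which cuts uracil out of DNA, read 4.96, 4.96, 5.69 and 5.37, so it was higher by 0.73 and 0.41, short of 2-fold in both genotypes.

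A test was possible only by pooling the genotypes. With limma over the 4 arrays, DSS against untreated with genotype as covariate, 28 of the 36 genes past the filter had an unadjusted p under 0.05, and all 28 were higher with DSS. Over all genes 7.64% were higher by that rule and 4.15% lower. After Benjamini-Hochberg adjustment over the 12189 genes none of the 36 passed (0% of all genes). The lowest adjusted p of limma was 0.364, which was also the lowest of any gene, and the highest among the 36 was 0.898. Rrm2 had an estimate of 2.45 with a standard error (SE) of 0.24 and a limma adjusted p of 0.364. Mcm3 had 2.00 (SE 0.25), Cdc6 1.89 (SE 0.26) and Mcm5 1.76 (SE 0.23). Orc1 had 0.17 (SE 0.25, limma adjusted p = 0.845) and Rfc2 0.13 (SE 0.29, limma adjusted p = 0.898). The median SE of the 36 was 0.26, beside 0.27 for all genes. The fit left 1 residual degree of freedom, which is how far the DSS difference of a gene departed between the genotypes. The SE of limma combines that departure with a prior estimated from all genes, of 2.68 degrees of freedom at the median. The prior therefore weighs more in the SE than the departure of the gene itself.

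By the chosen probe sets, none of the 37 was 2-fold apart between KO and WT without DSS, where 9.42% of all genes were. Levels were above WT for 27 genes (48.3% of all genes), below for 9 (50.7% of all genes) and equal for Ung, and the median was 0.20, from -0.75 for Rfc4 to 0.82 for Fen1. Without the probe sets whose names are marked x or s, the median was 0.36 and 1 gene was 2-fold apart. With DSS, none was 2-fold apart (5.42% of all genes). KO was below WT for 26 genes (52.6% of all genes) and above for 11 (45.3% of all genes), with a median of -0.18, from -0.71 for Pold2 to 0.25 for Prim2. For 36 of 37 genes, all but Pold2, the treated KO and WT values lay within 0.5 of each other, as they did for 82.3% of all genes. With limma, KO against WT gave no gene of the set at an adjusted p under 0.05 (0% of all genes) or at an unadjusted p under 0.05 (0.665% of all genes higher and 0.771% lower). Each limma adjusted p was 0.9995.

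**Figure D2:**
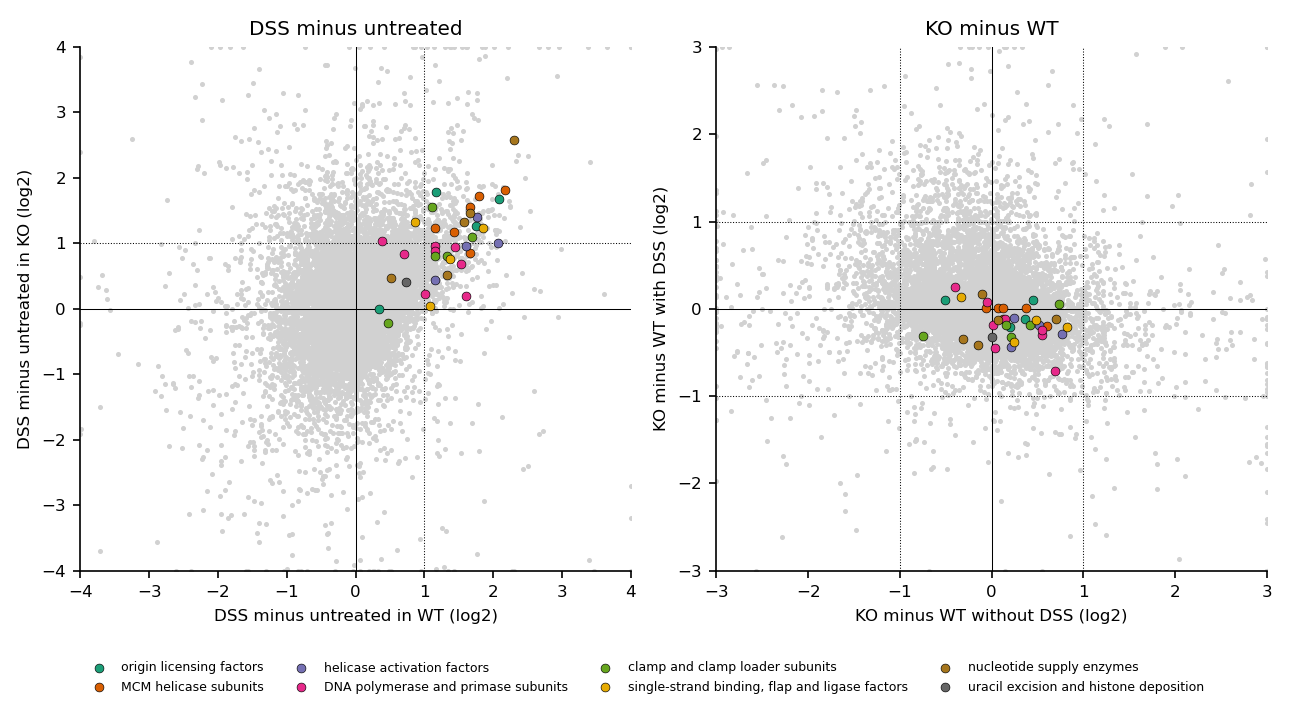
Each point is 1 gene, in colour by role for the replication set and grey for all genes past the filter. The left panel plots the DSS minus untreated log2 difference in KO against that in WT, and the right panel the KO minus WT difference with DSS against that without it. Grey points beyond the axes are drawn at the edge and dotted lines mark 2-fold. The coloured points lie to the right of 0 in the left panel and inside the 2-fold lines in the right one.

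The DSS difference was smaller in KO than in WT for 30 of the 37 genes, where 49.4% of all genes had a smaller one. It was larger for 7. The median of the difference between the genotypes was -0.35, beside 0 for all genes. It has no test, because the full model leaves no residual degrees of freedom. KO was above WT without DSS and below it with DSS for 22 genes (30.6% of all genes). The DSS difference in KO and the KO minus WT difference without DSS both use the untreated KO array, which differed most in tissue position. The DSS-treated WT array also differed from untreated WT in position markers. The part of these position differences in the result was not tested.

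The smaller difference in KO also depended on which probe set was read. The names of some Affymetrix probe sets end in x or s, which marks probes that can match transcripts beyond those of the gene. All other names, those ending in a included, were taken as unmarked. For 12 genes of the set both kinds of probe set passed the filter. By the probe sets without that mark, the median DSS difference over the 12 was 1.66 in WT and 0.89 in KO, and it was smaller in KO for 11 of 12, with a median gap of -0.69. By the marked probe sets it was 1.19 in WT and 1.40 in KO, smaller in KO for 6 of 12, with a median gap of 0.01. Mcm6 shows the split. Its unmarked probe set gave 1.66 in WT and 0.86 in KO, and its marked one gave 1.25 and 1.63. This comparison was chosen after the data were seen. Both kinds read higher with DSS in WT for each of the 12. The lowest gene mean in WT was 0.47 by unmarked and 0.43 by marked probe sets, and in KO it was -0.21 (Rfc2) and 0.05 (Fen1).

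Further probe sets of the same genes gave a second reading on the same arrays. The annotation held 81 probe sets of these genes, of which 44 were not the one chosen, and 29 of those passed the filter. Of the 29, 22 passed 2-fold upward in WT (5.82% of all genes) and all 29 were above 0 (48.5% of all genes), with a median of 1.42. In KO 15 passed it and 27 were above 0 (53.6% of all genes), with a median of 1.05. In WT, no gene had probe sets of opposite sign among the 22 with more than 1. In KO, Orc1, Cdc45, Pold1 and Rfc2 did. For KO minus WT the signs were less settled, and 9 of the 22 genes had probe sets of opposite sign without DSS and 8 with it. A second Pold1 probe set was 1.04 higher in untreated KO, the 1 reading of the set past the filter to pass 2-fold between the genotypes. The dimmest Mcm3 reading past the filter differed by 0.40 in WT and 0.09 in KO, against 2.18 and 1.81 for the brightest.

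**Figure D3:**
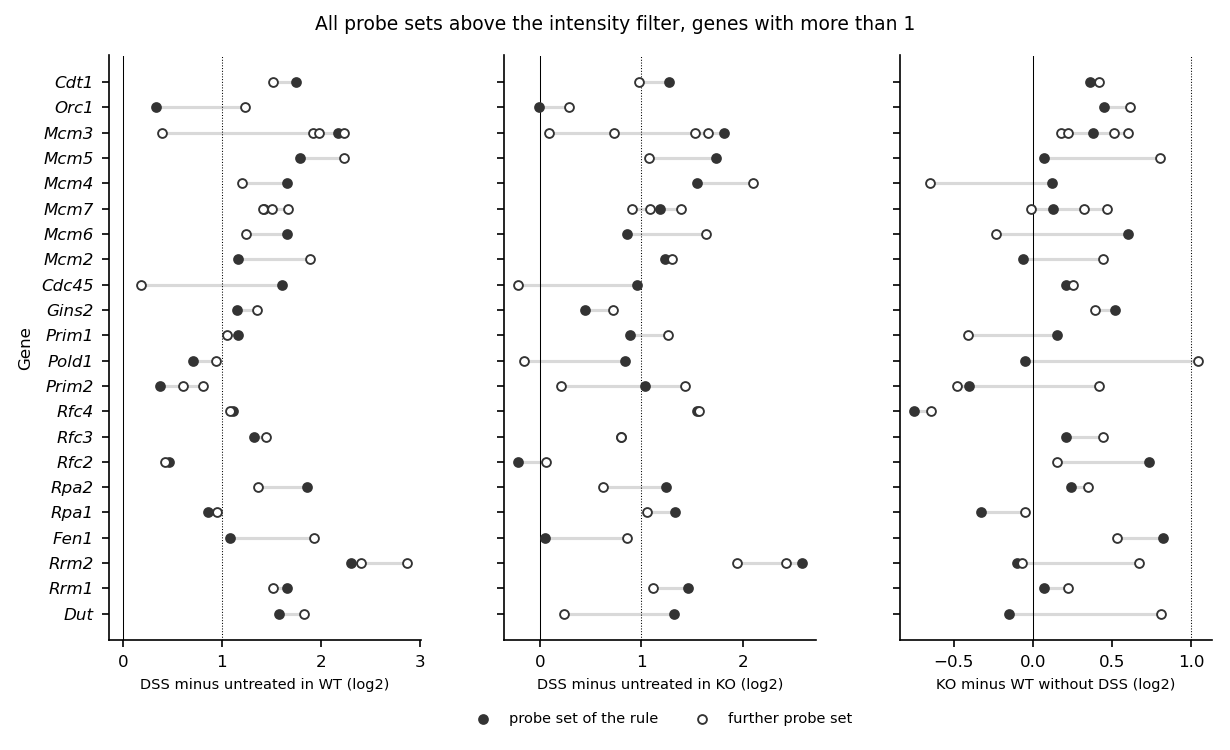
Each row is 1 of the 22 genes with more than 1 probe set past the filter, and each point a log2 difference by 1 probe set, filled for the brightest and open for the others. Every point lies above 0 for DSS in WT, 4 genes cross 0 for DSS in KO, and 9 cross it for KO minus WT without DSS.

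Other genes of the same processes were read from lists. Among 35 further replication factors, 16 passed 2-fold upward in WT and 11 in KO, beside 5.82% and 10.8% of all genes. Their medians were 0.78 and 0.72, and none was 2-fold lower. Dscc1, part of an alternative clamp loader, was higher by 1.83 and 1.86, and the nuclease helicase Dna2 by 2.09 and 1.44. The lowest were Mcm9, outside the Mcm2-7 ring, at 0 and -0.16, and the small delta subunit Pold4 at -0.52 and -0.17. Of 28 further nucleotide enzymes, 11 were 2-fold higher in WT and 9 in KO, beside the same shares of all genes. Ctps, which makes CTP, was higher by 1.78 and 2.89, and Prps1, which makes the ribose precursor, by 1.47 and 1.95. The mitochondrial deoxynucleoside kinases Tk2 (-0.38 and 0.02) and Dguok (-0.16 and -0.86) were the lowest. Among 8 enzymes that break down nucleosides and nucleotides, Dctpp1 alone was 2-fold higher, in WT at 1.14 beside 0.38 in KO. In a list of 8, that count is near the 5.82% of all genes that passed 2-fold upward in WT. The cytidine deaminase Cda was lower by 2-fold in both, at -1.38 and -1.76. Ada was at 0.68 and 0.97 and Upp1 at -0.27 and -0.18.

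Other lists covered steps around replication. Of 10 chromatin assembly and maintenance methylation genes, 5 were 2-fold higher in WT and 5 in KO (5.82% and 10.8% of all genes). They were not all the same genes. All 10 had both DSS arrays above both untreated ones (26.4% of all genes). Uhrf1, which guides methylation of new DNA, was higher by 2.54 and 1.49, and the remodeler Hells by 2.03 and 1.88. The histone chaperones Rbbp7 (0.56 and 0.59) and Rbbp4 (0.27 and 0.43) were the lowest. Of 24 mitosis genes, 20 were 2-fold higher in WT and 17 in KO (5.82% and 10.8% of all genes), with medians of 1.40 and 1.22. The kinase Aurka was higher by 1.98 and 1.52 and the survivin gene Birc5 by 1.93 and 1.5, while Ccnb2 was at 0.68 and 0.47 and Foxm1, a transcription factor of mitotic genes, at -0.04 and -0.27.

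Of 13 E2F and RB family genes, 5 were 2-fold higher in WT (38.5%) and 1 in KO (7.69%), beside 5.82% and 10.8% of all genes. The KO count is thus near the share of all genes. The repressors E2f7 (1.86 and 1.88) and E2f8 (1.75 and 0.97) were highest, and the pocket proteins Rbl2 (-0.53 and 0.19) and Rb1 (-0.55 and -0.12) lowest. Of 12 cyclins, kinases and phosphatases of G1/S, 4 were 2-fold higher in WT and 4 in KO, not all the same genes. Highest by mean DSS difference were Ccnd1 (2.03 and 1.21) and Ccne2 (0.98 and 1.98), and Ccne2 passed 2-fold in KO only. Ccnd2 at 0.24 and 0.24 and Cdk6 at 0.35 and -0.12 were the lowest. Of 11 CDK inhibitors and arrest genes, none was 2-fold higher. In WT 3 were 2-fold lower and in KO 1, beside 4.96% and 6.68% of all genes. Cdkn2b, an inhibitor of Cdk4 and Cdk6, was lower in both, at -1.27 and -2.07. Trp53inp1 was at -2.03 and 0.12, Ccng1 at -0.21 and 0.90 and Cdkn2c at 0.62 and -0.11. Base excision and mismatch repair had 2 of 10 genes 2-fold higher in WT and 1 in KO, the latter near the share of all genes. Exo1 was at 2.16 and 1.39, Apex1 at 1.36 and 0.96, Msh3 at 0.14 and 0.05 and Smug1 at 0.22 and -0.10. Of 11 polymerases outside bulk replication none passed 2-fold either way, which in so short a list is near the shares of all genes above. Mad2l2 was at 0.40 and 0.66, the mitochondrial Polg at 0.40 and 0.43 and Polg2 at -0.97 and -0.77, and Polk at -0.59 and -0.06.

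**Figure D4:**
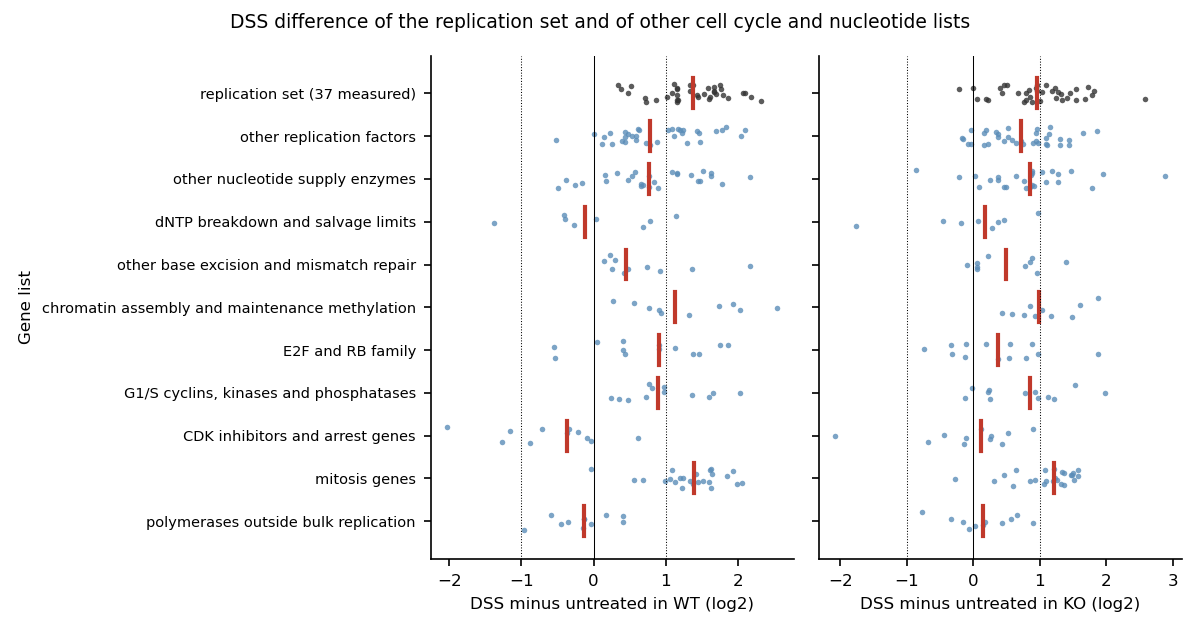
Points are the 37 genes of the replication set and the genes past the filter of each other list, by their DSS minus untreated log2 difference in WT and in KO, with bars at list medians. The replication set and the mitosis list sit highest in WT, with medians of 1.38 and 1.40, and the polymerases outside bulk replication lie near 0, at -0.13.

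Markers of cell types were read beside these values. The 10 colon epithelium markers had none 2-fold different with DSS in either genotype, with medians of -0.12 in WT and -0.25 in KO, and summed to 107 on untreated WT and 105 on treated KO. Of 9 crypt base and transit-amplifying markers measured, none was 2-fold different in WT, and 3 were lower in KO. In WT 4 of these markers were above 0 and 4 below, and in KO 5 were above and 4 below, with medians of 0 and 0.12. Lgr5, a stem cell marker, was the lowest by mean DSS difference, at -0.94 and -1.39. Cd44 was the highest, at 0.80 and 0.41. All 7 neutrophil markers measured were above 0 with DSS in WT, but in KO 4 were above and 3 below. S100a8, a calprotectin subunit, read 1.61, 1.89, 5.81 and 8.30 and passed the filter only through the treated arrays, as S100a9 did. Mmp8, at 1.44, 2.46, 2.16 and 3.70, passed it only through the treated KO array. Cxcr2, Ngp and Camp, under the filter throughout, were at -0.37, -0.13 and -0.22 in KO. Of 8 B cell markers measured, 5 passed 2-fold downward in WT and 7 passed it upward in KO. Their summed level was 38.7, 28.6, 30.3 and 44.2, highest on the treated KO array, and the exception in KO was the dim Pax5. The 5 germinal-centre B cell markers measured had medians of -0.38 and 0.08. The medians over measured genes were -0.27 and -0.47 for T cell markers, -0.15 and 0.38 for macrophage, -0.10 and 0.97 for fibroblast, -0.56 and 0.44 for smooth muscle and -0.01 and 0.68 for endothelial markers. Of the 7 fibroblast markers 3 were 2-fold higher in KO and none in WT, with summed levels of 53.2, 51.5, 51.8 and 58.5. Of the 7 smooth muscle markers 4 were 2-fold lower in untreated KO than in untreated WT, with summed levels of 69.0, 61.1, 64.0 and 64.4. The part of these lists in the results on replication genes was not tested. Housekeeping genes had medians of 0.15 and 0.27.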

How the data were processed

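Total RNA from the distal colon of 4 mice was extracted with Trizol and hybridised as biotinylated cRNA to Affymetrix arrays, per the labels' protocols. The authors deposited 1 value per probe set and array, used here as deposited log2 values from 0.16 to 13.23. The log base was inferred from the values: a natural log would put the highest at 556821, while log2 gives 9608. How the values were summarized and normalized was not given in the sources used here.

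Of 45101 probe sets, 34945 had 1 gene symbol, 932 had several, 9160 had none and 64 were controls. Symbols were updated by gene number (34741 matched) through RefSeq tables of GRCm38.p6, which also gave the promoters. A gene was read from its probe set with the highest mean. Counts over all genes use the 12189 past the filter (a probe set above the 50th percentile of at least 1 array).

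Differences between a pair of arrays have no test. The additive model was fitted with limma 3.58.1 in R 4.3.3 (lmFit, eBayes with trend, two-sided, Benjamini-Hochberg over all genes, threshold 0.05), with 1 residual degree of freedom and 2.68 prior degrees at the median, and was tested on simulated data. Other work used Python 3.11.15, numpy 2.4.6, pandas 2.3.3 and matplotlib 3.10.9. The number of arrays limits the precision.

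The genes and the 10 other pathway lists and 12 marker lists were chosen with earlier results of these data known. By the rule for named genes, values on every array are given for the highest and lowest mean DSS difference of each role group, for genes 2-fold apart between KO and WT, and for genes whose DSS difference had opposite signs in WT and KO. Other genes of the set, and the 2 highest and 2 lowest of each other pathway list, are given by their differences. Alternatives were quantile normalization, centring each array on its median, filtering at the 75th percentile or not at all, averaging the probe sets of a gene, dropping probe sets whose names are marked x or s, a 1.5-fold threshold, limma without covariate or trend, another baseline for KO and leaving out each array.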

Additional observations from a re-analysis of the deposited data

Results flagged for a closer look

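Among these genes, the DSS difference of Orc1 was above 0 in WT and below 0 in KO, and the KO minus WT gap was -0.35. For Rfc2 it was likewise above 0 in WT and below 0 in KO, with a gap of -0.68. The median KO minus WT difference over the 37 genes changed sign with DSS, from 0.20 without it to -0.18 with it, a change of -0.38. Among the marker lists, the median DSS difference of the 5 distal colon position genes past the filter was negative in WT and positive in KO, a gap of 4.90, and that of the 7 B cell genes past it went the same way, a gap of 3.71. None of these differences was tested, since each group had 1 array.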

How the results depend on the processing

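Of 97 alternative values, 38 were counts of 0 that stayed at 0, which have no direction. A further 49 were called near the reported value, which for a count allowed a ratio of up to 1.5, and 10 moved. Among those called near, the count of genes 2-fold higher in KO was 15 under quantile normalization. It was 23 against the untreated WT array, beside 18 as reported. Without the probe sets whose names are marked x or s, the WT median was 1.53, the KO minus WT median without DSS was 0.36 with 1 gene at 2-fold, and the median gap in the DSS difference was -0.59. Averaging probe sets gave a gap of -0.50. At a 1.5-fold threshold, 28 genes were higher with DSS in KO (22.6% of all genes), and 7 were apart between KO and WT without DSS (25.2%) and 1 with it (14.4%). Against the untreated WT array the KO median was 1.17. The upstream window, chosen after the data were seen, left 10 genes with an E2F-type core. Leaving out each array also meant dropping the covariate, since 3 arrays leave the additive model no residual degrees of freedom. Limma then called 0 genes of the set at an adjusted p under 0.05. By unadjusted p at the same threshold it called 23 to 32 of 36 for DSS (7.39% to 22.1% of all genes) and 0 for KO (0.369% to 5.19%), with the lone array of a group assumed to vary like the others. The causes were not tested. No paired analysis was possible because each group had 1 array and the labels carry no replicate numbers. Dim probe sets limit what can be read for Tyms.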

Other observations

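The split between the kinds of probe set was also measured beyond the replication genes. Over the 1907 genes with both kinds past the filter, the probe sets marked x or s gave a lower KO minus WT difference without DSS for 61.6%, with a median shift of -0.12. They gave a lower DSS difference in KO for 35.4%, with a median shift of 0.12, and in WT for 58.7%, with a median shift of -0.07. For the 12 replication genes with both kinds, the marked probe sets gave a lower KO minus WT difference without DSS in 9, with a median shift of -0.45. The 18 spiked hybridisation controls had a median of 7.17 on the untreated KO array and 7.62 to 7.74 on the others. These values were read after the pattern was seen and were not tested.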
